A study of Homo sapiens with 2 samples.

Results

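The 3' domains of 18S rRNA, which builds the small ribosomal subunit, were taken as positions 1201 to 1870 of the deposited table. They comprise 670 of the 6940 rRNA positions measured, which are the 1870 of 18S rRNA and the 5070 of 28S rRNA. The 490 positions 1201 to 1690 make up the 3' major domain, the head of the subunit. The 180 positions 1691 to 1870 make up the 3' minor domain, which holds helix 44, the long decoding helix, and helix 45. The borders and the helix names are approximate. The study asks how stalled ribosomes are recognised by ZAKα, the long form of the stress kinase MAP3K20. It sequenced rRNA fragments from 2 pull-downs in U2OS, a human osteosarcoma cell line, 1 library labelled ZAK-alpha-RBR and 1 labelled mock. Nothing further is said of the construct, of its tag or of any treatment in the sources used here, and both libraries were described as RNA from a pull-down of whole cells. With rRNA values alone, the cell line could not be checked against marker genes. With 1 library per group there was no replicate check, so no test between groups was made and differences are given with counting error only.

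The head of the small subunit swivels on the body as messenger RNA and tRNAs move through the ribosome. Its helices hold the tRNAs from above, and its helix 34 borders the channel through which messenger RNA enters. Helix 44 runs down the face of the subunit that meets the large subunit, and a pair of adenines near its base checks the pairing of codon and anticodon. Helix 45, a short hairpin at the 3' end, lies beside it and carries a pair of dimethylated adenines. ZAKα is activated when ribosomes stall or collide, in the response known as ribotoxic stress.

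The values are coverage: each read counts at all the bases it covers, and neighbouring positions therefore share reads. Each value is given in parts per 1000000 (ppm) of the summed coverage of its library, which was 6835941 for ZAK-alpha-RBR and 78749474 for mock before the authors scaled the columns to one total. The median depth over the 3' domains was 1187 reads per position with ZAK-alpha-RBR and 14960 with mock. A region was called where the ratio of the libraries, averaged over 15 positions, stayed 2-fold or more away from the 18S median, upward or downward, for 10 or more positions. The rule found 2 higher and 4 lower regions in the 3' domains, and their sequences show where on the RNA the libraries parted. They are written 5' to 3' with the region in capitals and 15 flanking bases on each side in lower case.
Higher region of the head, positions 1361 to 1377: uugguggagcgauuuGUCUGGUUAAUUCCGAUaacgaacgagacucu
Lower region of the head, positions 1460 to 1490: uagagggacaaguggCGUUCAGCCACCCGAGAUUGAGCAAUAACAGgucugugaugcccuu
Lower region of the head, positions 1520 to 1533: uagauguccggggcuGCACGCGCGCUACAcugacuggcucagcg
Lower region of the head, positions 1613 to 1664: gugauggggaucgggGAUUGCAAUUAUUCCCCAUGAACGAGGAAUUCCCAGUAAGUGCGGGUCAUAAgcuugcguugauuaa
Lower region before helix 44, positions 1690 to 1699: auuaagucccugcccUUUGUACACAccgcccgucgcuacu
Higher region in the 3' strand of helix 44, positions 1797 to 1820: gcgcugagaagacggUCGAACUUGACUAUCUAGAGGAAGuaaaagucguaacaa

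Taken whole, the 3' domains took 13.2% of the library with ZAK-alpha-RBR (12.7 to 13.7, 95% exact binomial) and 14.3% with mock (14.0 to 14.5), a log2 ratio of -0.11. Within that sum the head was lower and the minor domain higher with ZAK-alpha-RBR. The head held 9.78% (9.34 to 10.2) with ZAK-alpha-RBR and 11.6% (11.4 to 11.8) with mock, a log2 ratio of -0.25. The minor domain held 3.39% (3.12 to 3.67) with ZAK-alpha-RBR and 2.66% (2.56 to 2.76) with mock, a log2 ratio of 0.35. The rest of 18S rRNA was higher with ZAK-alpha-RBR, at 22.7% against 18.6% in mock. The 3' domains therefore made up 36.8% of 18S rRNA with ZAK-alpha-RBR, against 43.4% with mock.

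Counted by position, 55 of the 670 positions (8.21%) stood 2-fold or more above mock with ZAK-alpha-RBR, where 9.31% of all rRNA positions were. Another 119 (17.8%) were at least 2-fold lower, against 11.9% of all rRNA positions. Of the lower positions 109 lay in the head (22.2% of its positions), which had 20 higher ones (4.08%). The minor domain had 35 higher (19.4%) and 10 lower positions (5.56%). When each rRNA was scaled to its own total, which shifts every 18S ratio down by 0.12 on the log2 scale, the counts were 39 higher and 146 lower. The share of all rRNA positions was not computed under that scaling, so those counts have no background beside them. No position of the 3' domains was at least 4-fold higher, where 0.749% of all rRNA positions were. At least 4-fold lower were 18 of the 670, a share close to that of all rRNA positions (177 of 6940, or 2.55%). All 18 were in the head. Positions inside higher regions numbered 41 (6.12%, against 4.73% of all rRNA positions), and positions inside lower regions numbered 107 (16.0%, against 9.73% of all). The median log2 ratio was -0.34 over the head, 0.28 over the minor domain, 0.11 over the rest of 18S rRNA and 0.15 over 28S rRNA.

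**Figure D1:**
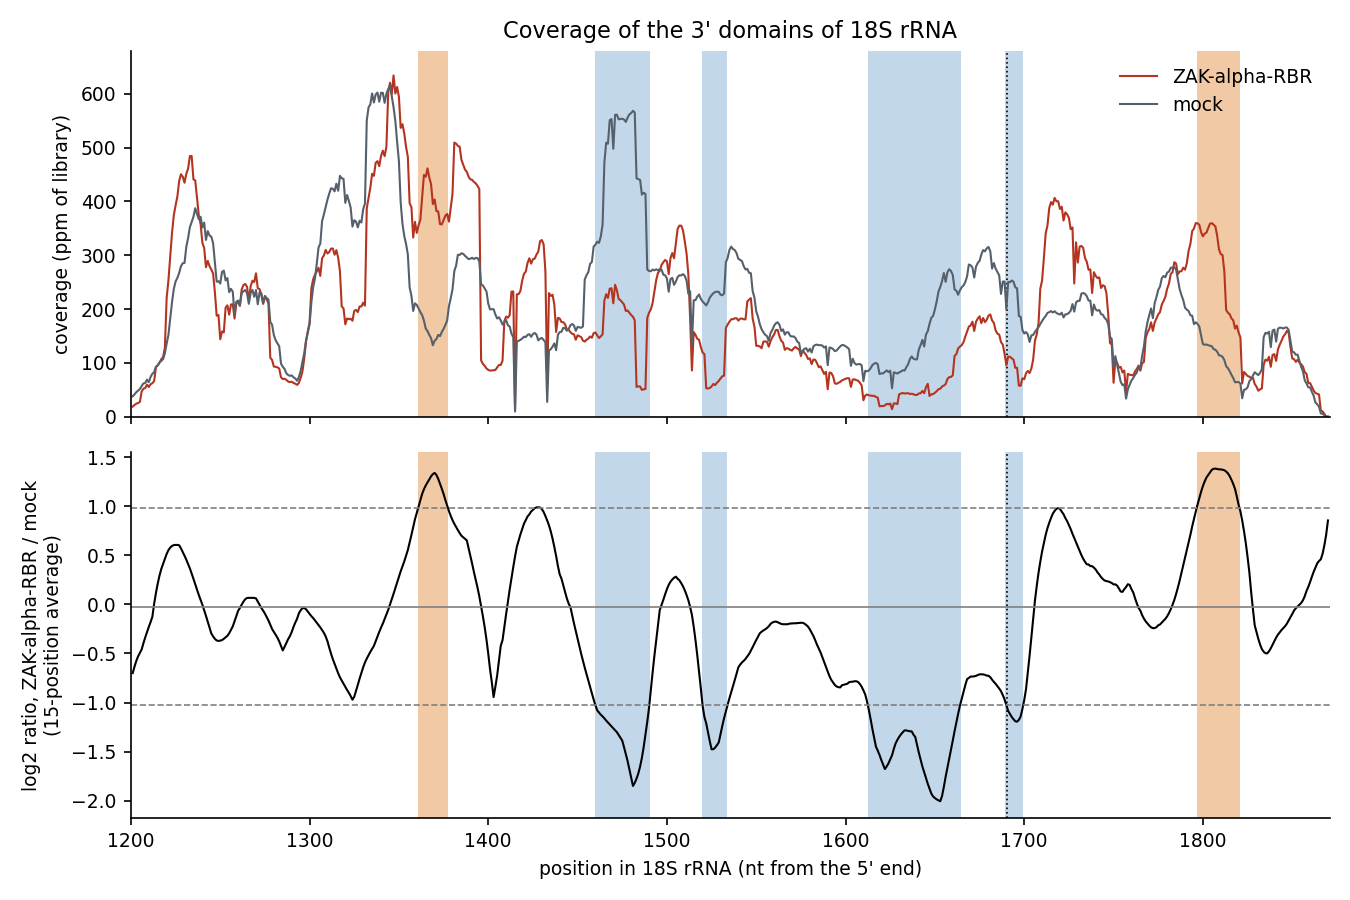
Coverage per position of the 3' domains in ppm of each library (upper panel) and the log2 ratio of ZAK-alpha-RBR to mock after averaging over 15 positions (lower panel), against position in 18S rRNA. Orange marks the 2 higher and blue the 4 lower regions, the dotted line is the border of the head and the minor domain, the solid grey line is the median ratio of 18S rRNA and the dashed lines are 2-fold either side of it. The averaged ratio peaked at 1.34 in the head and 1.38 in the minor domain, and its lowest point lay at position 1653.

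The sign of the difference changed several times along the RNA. In bins of 50 positions, 7 of 14 bins were higher with ZAK-alpha-RBR and 7 were lower, and the 3 bins that were at least 2-fold lower all lay between 1451 and 1700. Mean coverage in the bin at 1601 to 1650 was 41.8 ppm with ZAK-alpha-RBR and 105 ppm with mock, the lowest log2 ratio of the bins (-1.33). The bins at 1451 to 1500 and 1651 to 1700 had log2 ratios of -1.08 and -1.05. The bin at 1351 to 1400 had the highest ratio, 395 ppm with ZAK-alpha-RBR and 236 ppm with mock (log2 0.74), and all 4 bins from 1701 on were higher with ZAK-alpha-RBR (0.15 to 0.60). Pearson's r of the log2 ratio with GC content was 0.09 across the 14 bins, which share their libraries, and with the mock level it was -0.32.

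**Figure D2:**
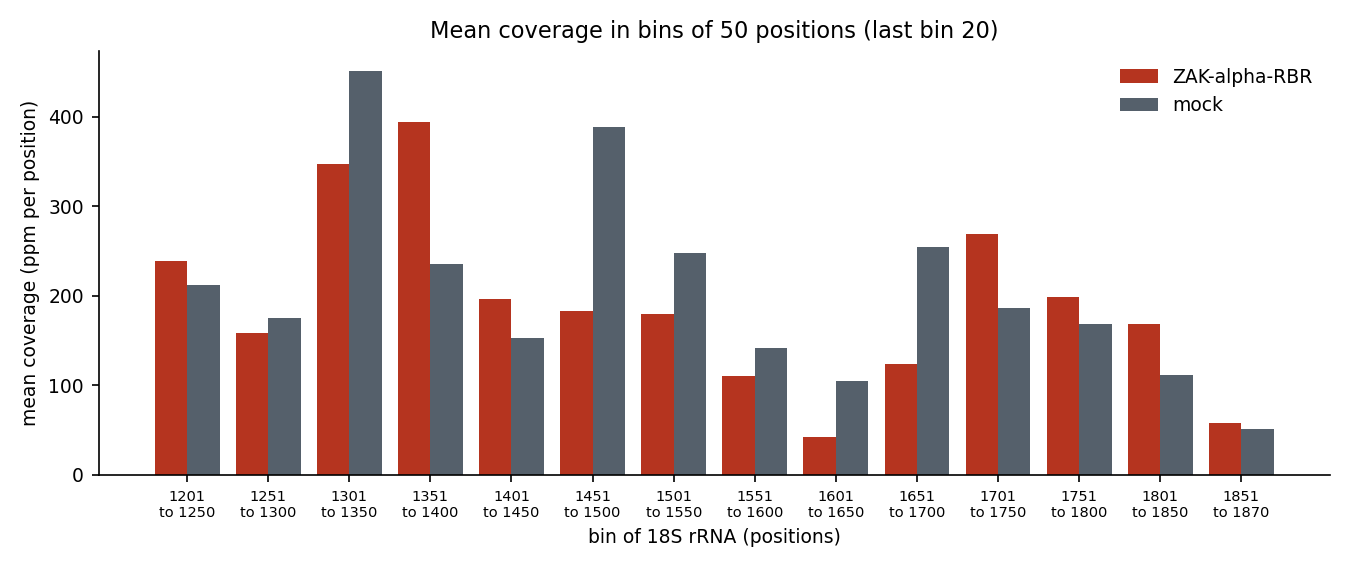
Mean coverage in ppm per position (vertical axis) in bins of 50 positions along the 3' domains (horizontal axis; the last bin holds 20), with ZAK-alpha-RBR in red and mock in grey, 1 library each. ZAK-alpha-RBR was the lower library at 1451 to 1500 and in every bin from there to 1700, and the higher one in every bin after it.

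At the start of the head the libraries differed in both directions, by less than 2-fold. In the 2 bins from 1201 to 1300 log2 ratios ran from -0.98 at 1201, just short of 2-fold, to 0.74 at 1221. The log2 coverages of the libraries rose and fell together, with r of 0.95 and 0.94 across the 50 positions of each bin, which share reads. The loop of helix 31, which reaches down to the P-site tRNA, holds a hypermodified uridine at position 1248, in capitals here.
Helix 31 loop, positions 1233 to 1263: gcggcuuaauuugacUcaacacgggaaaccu
This base had 1282 reads with ZAK-alpha-RBR, or 188 ppm, and 19741 reads with mock, or 251 ppm. The 15 positions centred on it had a log2 ratio of -0.37.

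The highest coverage of the 3' domains in both libraries lay a little further on, over positions 1338 to 1349. In a pairing predicted below, this is about the 3' end of the first strand of helix 34. U at 1347 was the top position with ZAK-alpha-RBR, with 4335 reads or 634 ppm, against 45292 reads or 575 ppm with mock (1.10-fold, 1.07 to 1.14). G at 1345 was the top position with mock, at 620.5 ppm with ZAK-alpha-RBR and 616 ppm with mock, and its interval of the fold included 1 (0.976 to 1.04). The summit of the head was thus of nearly equal height in the 2 libraries. On its 5' side mock was the higher one: 6 positions from 1318 to 1323 averaged 187 ppm with ZAK-alpha-RBR and 414 ppm with mock, and the acetylated cytidine of helix 34 at 1337 had 472 ppm with ZAK-alpha-RBR and 599 ppm with mock. On its 3' side ZAK-alpha-RBR was the higher one.

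That 3' side held the 5 highest single-position ratios of the whole range. In the region 1361 to 1377 mean coverage was 397 ppm with ZAK-alpha-RBR (356 to 461 over its positions) and 163 ppm with mock (133 to 201), 2.44-fold higher. Every ZAK-alpha-RBR value in it lay above every mock value, which the rule that chose the region makes likely. The region was found under 5 of 8 alternative settings of the region rule, among them a 1.5-fold limit that cannot lose a region. A at 1369 had 2700 reads with ZAK-alpha-RBR and 10448 with mock, or 395 ppm against 133 ppm, 2.98-fold higher (95% exact interval 2.85 to 3.11). The widest gap in favour of ZAK-alpha-RBR, 302.5 ppm, lay 3 bases upstream at G 1366. The region was a valley between 2 peaks in mock, and in ZAK-alpha-RBR the valley was partly filled: the 15 positions before it had 497 ppm with ZAK-alpha-RBR and 367 ppm with mock, and the 18 positions after it had 450 ppm with ZAK-alpha-RBR and 281.5 ppm with mock. The higher stretch ended at a single base. After C at 1395 the ZAK-alpha-RBR coverage dropped by 318 ppm, to 105 ppm, the largest step of the range, while mock dropped by 42.6 ppm, to 246 ppm. The 9 positions after that step, 1396 to 1404, averaged 90.8 ppm with ZAK-alpha-RBR and 218 ppm with mock.

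Both libraries shared sharp dips at 1415 and 1433, each the first base of a run of 5 cytosines. Position 1415 had 12.7 ppm with ZAK-alpha-RBR and 9.42 ppm with mock, and the next base had 227 ppm with ZAK-alpha-RBR and 140 ppm with mock. These dips were a feature of single bases in both libraries and did not make a region.

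The largest loss at single positions, as a ratio and in ppm, lay within positions 1460 to 1490. Mean coverage there was 170 ppm with ZAK-alpha-RBR (49.6 to 245) and 470 ppm with mock (271 to 568), 2.76-fold lower, and the region took 0.528% of the library with ZAK-alpha-RBR, against 1.46% with mock. Mock had one of its 2 main summits of the head here, and ZAK-alpha-RBR had none above 245 ppm. The loss was greatest over 6 bases, AAUAAC at 1483 to 1488, with 53.2 ppm with ZAK-alpha-RBR and 428 ppm with mock, 8.05-fold lower. A at 1486 was lowest of all, with 339 reads (95% exact Poisson interval 304 to 377) with ZAK-alpha-RBR and 32490 (32138 to 32845) with mock, 8.32-fold lower (7.48 to 9.29). The borders of these 6 bases were CA steps, that is a C followed by an A. At the first, both libraries fell by a similar amount, 124 ppm with ZAK-alpha-RBR and 122 ppm with mock. At the second they went opposite ways: coverage reached 183 ppm at 1489 after 51.2 ppm at 1488 with ZAK-alpha-RBR, and 273 ppm after 414 ppm with mock. Beyond the region the libraries met again, at 271 ppm with ZAK-alpha-RBR and 262 ppm with mock over 1491 to 1505.

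In a predicted pairing, the 3' side of this trough lies in the second strand of helix 34, whose first strand reaches into the summit described above. A duplex predicted between the 2 stretches had 20 base pairs, and its strands are shown with the paired bases in capitals.
Helix 34 5' strand, positions 1326 to 1348: uGGuGCAUGGCCGUUCUUAGUUg
Helix 34 3' strand, positions 1474 to 1504: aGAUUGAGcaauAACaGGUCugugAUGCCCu
The strands of the predicted helix did not differ by the same amount. The 5' strand had 425 ppm with ZAK-alpha-RBR and 532 ppm with mock (log2 -0.32), and 0 of its 23 positions were at least 2-fold lower. The 3' strand had 200.5 ppm with ZAK-alpha-RBR and 381 ppm with mock (log2 -0.93). Of its 31 positions 15 were at least 2-fold lower, against 11.9% of all rRNA positions. All 15 lay at 1474 to 1488, inside the lower region 1460 to 1490, so the contrast of the strands restates that region. The prediction rests on energy alone and was made after the values had been seen.

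**Figure D3:**
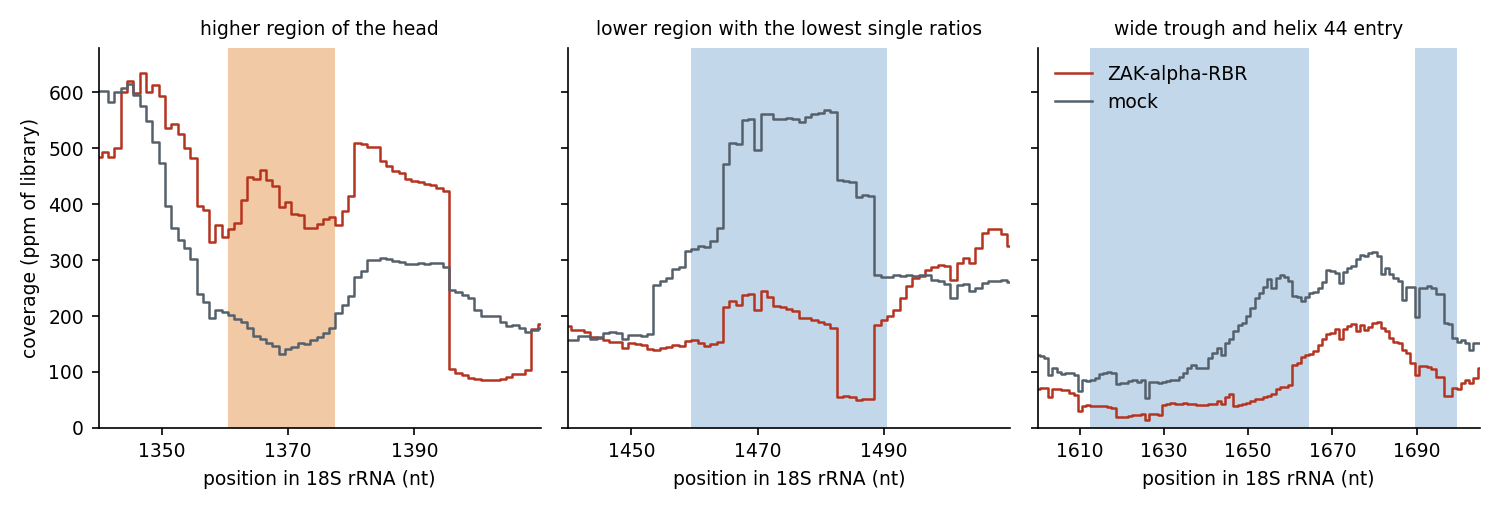
Coverage in ppm of library (vertical axis) against position in 18S rRNA (horizontal axis) in 3 stretches of the head, ZAK-alpha-RBR in red and mock in grey, with higher regions shaded orange and lower regions blue. The left panel shows the valley of mock at 133 ppm that ZAK-alpha-RBR crosses at 395 ppm, the middle panel the 6 bases at 53.2 ppm with ZAK-alpha-RBR and 428 ppm with mock, and the right panel the long trough before helix 44.

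A short GC-rich stretch, 1520 to 1533, was lower as well, at 77.5 ppm with ZAK-alpha-RBR and 227 ppm with mock (2.93-fold lower), and was likewise found under 5 of the 8 settings. The widest trough spanned 52 positions, 1613 to 1664. It averaged 47.9 ppm with ZAK-alpha-RBR (13.8 to 130) and 145 ppm with mock (52.7 to 274), 3.03-fold lower, and was the one region found under all 8 settings. The loss was deepest at 1647 to 1656, where 10 positions in a row were at least 4-fold lower, with 49.0 ppm with ZAK-alpha-RBR and 220 ppm with mock. Coverage was low at the start of the trough in both libraries and then climbed earlier in mock: U at 1653 had 354 reads with ZAK-alpha-RBR and 18973 with mock. The trough contains G 1639, a 7-methylguanosine of the head. This base had 275 reads or 40.2 ppm with ZAK-alpha-RBR and 8368 reads or 106 ppm with mock, 2.64-fold lower (2.34 to 2.99). Outside the trough ZAK-alpha-RBR remained below mock, with 60.6 ppm against 105 ppm in the 15 positions before it and 167 ppm against 279 ppm in the 15 after it.

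The last lower region, 1690 to 1699, lies where the head joins helix 44, and its last base is the first one paired in the helix as predicted. It had 90.0 ppm with ZAK-alpha-RBR and 222 ppm with mock, 2.46-fold lower, and it was found under 4 of the 8 settings. Just beyond it lies C 1701, the base on which the P-site anticodon stacks. The predicted fold pairs it with 1836, but that pair did not recur when the whole range was folded, so it may precede the helix. It is shown in capitals among the bases around the start of helix 44.
Start of helix 44, positions 1691 to 1720: uuguacacacCgcccgucgcuacuaccgau
C 1701 had 551 reads or 80.6 ppm with ZAK-alpha-RBR and 12376 reads or 157 ppm with mock, 1.95-fold lower (1.79 to 2.13). The sign of the ratio changed within a few bases. Over 1700 to 1714 coverage was 190 ppm with ZAK-alpha-RBR and 167 ppm with mock, and over 1715 to 1721 it was 397 ppm with ZAK-alpha-RBR and 193 ppm with mock.

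Helix 44 was therefore followed along both its strands. A fold predicted for positions 1691 to 1869 gave it 49 base pairs between 1699 and 1838, of which 43 recurred when the whole range was folded, and gave helix 45 9 pairs. The 5' strand had 218.5 ppm with ZAK-alpha-RBR and 155 ppm with mock (log2 0.50), and the 3' strand had 233 ppm with ZAK-alpha-RBR and 161 ppm with mock (log2 0.53). Both strands were thus higher by about the same factor, and the 5 bases of the loop at the tip, with 105.5 ppm with ZAK-alpha-RBR and 117 ppm with mock, were not. In 28 of the 49 pairs both bases had a log2 ratio above 0, in 6 both were below 0 and in 15 they differed in sign. Across the 49 pairs the ratios of the 2 strands had a Pearson's r of 0.72. Neighbouring pairs share reads, so this value describes 2 smooth profiles and not 49 separate points.

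The helix was split into 3 stretches of 16 or 17 pairs, and the excess lay in the stretch nearest the decoding site and in the middle one. In the stretch nearest the decoding site the 5' strand had 271 ppm with ZAK-alpha-RBR and 178 ppm with mock (log2 0.61). The 3' strand there had 148 ppm with ZAK-alpha-RBR and 89.9 ppm with mock (log2 0.72). The first pairs of that stretch, from 1699 with 1838 to 1706 with 1828, were below 0 on both strands, down to -1.16 at 1699. Those first pairs did not recur when the whole range was folded. In the middle of the helix the strands parted. There the 5' strand had 297 ppm with ZAK-alpha-RBR and 205 ppm with mock (log2 0.54), and the 3' strand had 336 ppm with ZAK-alpha-RBR and 152 ppm with mock (log2 1.15). Toward the tip the mean log2 ratios were 0.13 on the 5' strand and -0.14 on the 3' strand. These means hide a spread on the 5' strand, which ran between -0.54 at 1750 and 0.63 at 1758, and all 15 pairs whose bases differed in sign lay in this stretch.

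**Figure D4:**
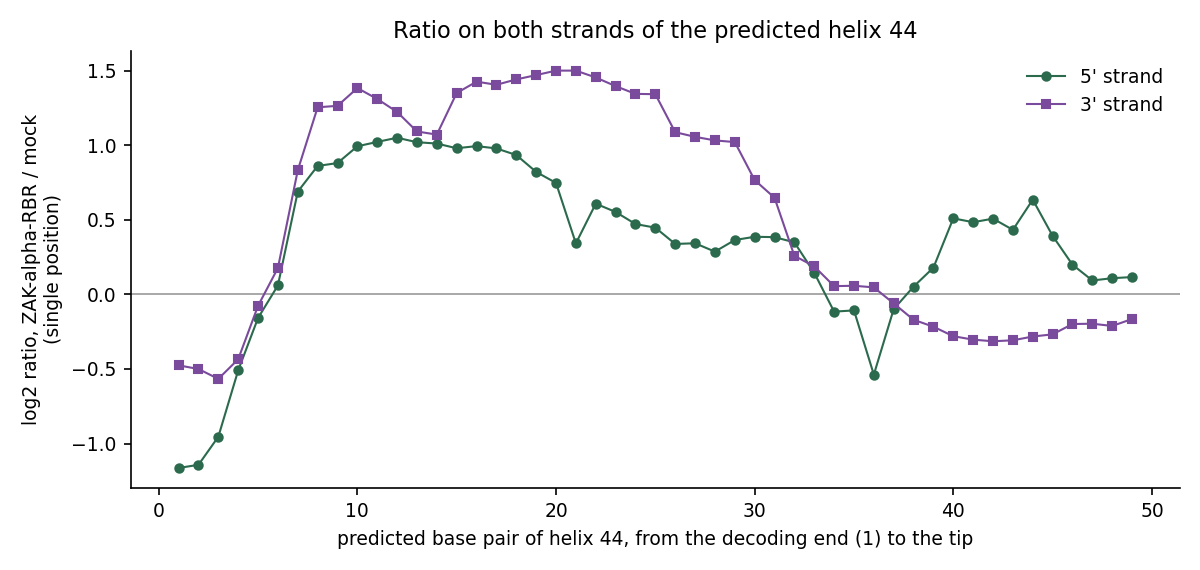
Log2 ratio of ZAK-alpha-RBR to mock at single positions (vertical axis) for the 49 predicted base pairs of helix 44, numbered from the decoding end to the tip (horizontal axis), with the 5' strand in green and the 3' strand in purple. Both strands start below 0, rise within a few pairs, the 5' strand to at most 1.05 and the 3' strand above it, and toward the tip the 5' strand varies between -0.54 and 0.63 while the 3' strand stays near or below 0.

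The higher region of the minor domain, 1797 to 1820, is on that 3' strand. It had 283.5 ppm with ZAK-alpha-RBR (156 to 360) and 113 ppm with mock (63.8 to 172), 2.51-fold higher. Each of its 24 positions was at least 2-fold higher, which the rule that chose the region makes likely. C at 1807 had 2416 reads with ZAK-alpha-RBR and 9788 with mock. Its 19 predicted partners on the 5' strand, between 1713 and 1737, had 346 ppm with ZAK-alpha-RBR and 202 ppm with mock, 1.71-fold higher, and 4 of them reached 2-fold. Right after the region the averages were nearly level: coverage over 1821 to 1835 was 75.6 ppm with ZAK-alpha-RBR and 78.3 ppm with mock.

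That flank holds the decoding adenines. The 3' end of 18S rRNA is shown with 6 bases in capitals, which are the decoding adenines 1824 and 1825, the 6-methyladenosine 1832, the acetylated cytidine 1842 and the dimethylated adenines 1850 and 1851 of the helix 45 loop.
3' end of 18S rRNA, positions 1769 to 1869: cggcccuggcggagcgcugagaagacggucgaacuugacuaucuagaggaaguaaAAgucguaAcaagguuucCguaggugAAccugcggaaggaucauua
A 1824 had 541 reads or 79.1 ppm with ZAK-alpha-RBR and 3996 reads or 50.7 ppm with mock, 1.56-fold higher (1.42 to 1.71). A 1825 had 75.5 ppm with ZAK-alpha-RBR and 54.6 ppm with mock, 1.38-fold higher (1.26 to 1.52). Both adenines lay on the falling flank of the higher region and below its 2-fold limit. At 6-methyladenosine 1832, the target of METTL5, the sign was the opposite, with 50.8 ppm with ZAK-alpha-RBR and 81.4 ppm with mock, 1.60-fold lower (1.44 to 1.79).

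Helix 45 differed little between the libraries. The 5' strand of helix 45 had 133 ppm with ZAK-alpha-RBR and 161 ppm with mock (log2 -0.28), and it holds the acetylated cytidine 1842, with 125 ppm with ZAK-alpha-RBR and 163 ppm with mock. The 3' strand had 87.2 ppm with ZAK-alpha-RBR and 83.2 ppm with mock (log2 0.07). The dimethylated adenines, set by DIMT1 late in the making of the subunit, had 108 and 107 ppm with ZAK-alpha-RBR and 121 and 120 ppm with mock. In the last bases ZAK-alpha-RBR was the higher library: C at 1865 had 281 reads or 41.1 ppm with ZAK-alpha-RBR and 1447 reads or 18.4 ppm with mock, 2.24-fold higher (1.96 to 2.54). Coverage ran out there in both libraries, to 34 reads with ZAK-alpha-RBR and 203 with mock at 1868 (1.93-fold higher, 1.30 to 2.79). Positions 1869 and 1870 had no read with ZAK-alpha-RBR, which allows up to 3 reads or 0.439 ppm as a one-sided limit, and mock had 2 reads at 1869 and none at 1870. The table gives no base for 1870.

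The sequence of the regions was compared as well, over few positions. The 107 positions of the 4 lower regions held 12 CA steps, or 11.2 per 100 positions, and the 41 positions of the 2 higher regions held 0, while the whole range held 31, or 4.63 per 100. GC content was 41.5% in the higher regions, 48.6% in the lower regions and 56.6% over the range. Falls of coverage from one base to the next mark fragment ends, apart from single-base dips such as those at 1415 and 1433, which are included here, and CA steps, 4.63% of the steps of the range, took a larger share of the falls. They made up 17.3% of the summed falls of coverage with ZAK-alpha-RBR and 14.8% with mock. Elsewhere on both rRNAs the same step took 21.7% of the falls with ZAK-alpha-RBR and 11.99% with mock. The libraries thus differed less at CA steps in the 3' domains than elsewhere on the rRNAs, with no replicate to set a spread beside that comparison. CA was not the only step to differ in the 3' domains. UA steps took 6.63% of the falls with ZAK-alpha-RBR and 4.13% with mock, and GA steps 3.95% with ZAK-alpha-RBR and 6.97% with mock. Whether the composition of fragment ends has a part in the 6 regions was not tested.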

How the data were processed

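RNA from 2 pull-downs in U2OS cells, 1 labelled ZAK-alpha-RBR and 1 labelled mock, was fragmented, joined to adaptors with a modified tRNA ligase and, per the labels' protocols, read on the Ion Proton. An adaptor trimmer, cutadapt 2.0, and an aligner, Bowtie2 2.3.4.1, are listed in the submitters' processing notes. Not given in the sources used here are the reference, the strand and the handling of duplicate and multiply mapping reads. The deposited values are a coverage signal per rRNA position ("normalized reads", per the file headers). Both columns sum to 78749474, and all ZAK-alpha-RBR values are whole multiples of one step, the ratio of the totals before scaling (11.52 when rounded, tolerance 0.001 of a read), so read depths before the authors' scaling could be recovered. Chromosome positions are left out, since rRNA genes are repeated.

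Values were put on the ppm scale by dividing by the library total. Log2 ratios of single positions and of averaged profiles carry a pseudocount of 1 ppm, while printed folds and ratios of means carry none. Intervals are exact 95% Poisson or Clopper-Pearson intervals. They cover counting error only, and those of shares use the fewest reads each library can hold, 17111 with ZAK-alpha-RBR and 98906 with mock. Reads carry no molecular identifiers, so the intervals may be too narrow for molecules. Named positions are the 5 highest in each library, and the 5 highest and 5 lowest ratios with at least 100 reads in the 2 libraries summed. Further single edges and runs were named after their values were seen. The modified and decoding bases were located by sequence motif. Of the planned motifs 2 led to other bases, at 1374 and 1632, and were replaced after the values were seen. Pairing was predicted with ViennaRNA 2.7.2. Alternatives were other scalings, pseudocounts, windows, limits and lengths, filled dips inside runs of equal bases and another fold. The range, the bases and the rules were chosen with earlier results of these data known. Python 3.11.15, numpy 2.4.6, pandas 2.3.3, scipy 1.17.1 and matplotlib 3.10.9 were used.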

Additional observations from a re-analysis of the deposited data

How the results depend on the processing

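Leaving out a replicate was not possible with 1 library in each group. No paired analysis was possible because each group has 1 library. Among the results recomputed, no ratio changed sign. Some ratios above 0 by less than 0.12 were not recomputed and fall below 0 when each rRNA is scaled to its own total. Among them are those of G 1345, of positions 1491 to 1505 and of the 3' strand of helix 45. The median over the rest of 18S rRNA (0.11) is another. Bases of helix 44, such as 1708 (0.06), are among them too, so the counts of pairs by sign would change. Scaled to the total of 18S rRNA alone, the log2 ratio was -0.24 for the 3' domains and -0.37 for the head, and it was -0.06 and -0.19 when the region of 18S rRNA with the top peak was kept out of the totals. The minor domain had 22 of its 180 positions at least 2-fold higher when each rRNA was scaled to its own total. It had 22 as well when scaled by the median of ratios. With library totals it had 35 (19.4%, against 9.31% of all rRNA positions). The share of all rRNA positions under the other scalings was not computed. Higher regions numbered 1 with a window of 31 positions, 4 at a 1.5-fold limit, 0 at a 3-fold limit and 1 when at least 20 positions were asked for, and lower regions 2, 1 and 2 with the window of 31, the 3-fold limit and the 20 positions. With dips inside runs of equal bases filled, CA steps took 21.2% of the falls in the 3' domains with ZAK-alpha-RBR and 19.3% with mock. Steps after C then took 47.4% with ZAK-alpha-RBR and 39.9% with mock. In the fold of the whole range the 5' strand of helix 44 had a log2 ratio of 0.60. The cause of these shifts was not tested. All 6 regions were found with a window of 5 positions, a 1.5-fold limit, library totals as baseline and dips filled. The 1.5-fold limit could not lose a region, since a run 2-fold away is also 1.5-fold away. Library totals moved the baseline little, from -0.0218 on the log2 scale. The 1690 to 1699 region was lost with a pseudocount of 10 ppm, the window of 31, the 3-fold limit and the 20 positions. Depth limits precision where ZAK-alpha-RBR has few reads, as in the dip at 1415 (87 reads) and at 1868 (34 reads).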
